A study of Mus musculus with 12 samples.

Results

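The acute phase genes followed here were the serum amyloid A genes Saa1, Saa2 and Saa3, the haptoglobin gene Hp, the hemopexin gene Hpx, the orosomucoid genes Orm1 and Orm2, the alpha-2-macroglobulin gene A2m, the ceruloplasmin gene Cp and the lipopolysaccharide binding protein gene Lbp. They were found by gene name among the non-control probes of the arrays, which gave 14 probes for 10 genes out of 56605 probes for 37074 genes. Cp had 5 probes and each of the other genes had 1. The question was which of these genes, best known as products of the liver, were transcribed in the injured cecum itself and when.

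The tissue was cecum of mice labelled male, of the C57BL/6 strain per the methods, hybridised to 1-colour Agilent arrays on which spot brightness measures the amount of a transcript. There were 4 groups of 3 arrays each, described as biological triplicates. The sham control was operated on without cauterization and, per the methods, sampled at 0 h, and the other groups were sampled 3, 12 or 72 h after a brief burn of the cecal wall with bipolar forceps, a model of postoperative adhesion. The mice were operated on under pentobarbital anaesthesia, and no mutant allele or age was given for them in the sources used here. A later time point therefore differed from sham both in cauterization and in time since surgery, and these cannot be told apart.

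Acute phase proteins are plasma proteins whose synthesis changes within hours of injury or infection. In the liver, IL-6 and related cytokines act through STAT3, and IL-1 and TNF through NF-kB and C/EBP factors, to raise their transcription. Several of them are also made outside the liver: Saa3 in macrophages, fat and epithelium, Saa1 and Saa2 in the epithelium of the large bowel, Hp in neutrophils and fat, and Cp in macrophages. The proteins have different tasks, namely chemoattraction and lipid transport for serum amyloid A, capture of free haemoglobin and heme for haptoglobin and hemopexin, protease trapping for alpha-2-macroglobulin, copper-dependent iron oxidation for ceruloplasmin, and delivery of bacterial lipopolysaccharide to CD14 for Lbp.

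The sequences of the serum amyloid A and orosomucoid genes bear on how far the members of each family can be told apart. The windows below are the 250 bases upstream of the transcription start in the RefSeq table of build GRCm38.p6, for Saa1 at chr7:46742981-46743230 on the minus strand, Saa2 at chr7:46751583-46751832 on the plus strand and Saa3 at chr7:46715677-46715926 on the minus strand. Capitals mark matches, on either strand, to TTGCNNAA or TTNNGNAA, which are letters of C/EBP sites, or to the NF-kB letters, GGG and CC with 5 bases of any kind between them.
Saa1 promoter: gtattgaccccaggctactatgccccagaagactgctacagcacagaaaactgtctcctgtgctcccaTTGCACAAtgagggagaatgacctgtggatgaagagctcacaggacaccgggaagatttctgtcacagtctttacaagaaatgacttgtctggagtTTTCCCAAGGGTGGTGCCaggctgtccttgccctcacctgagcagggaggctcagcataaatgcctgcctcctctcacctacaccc
Saa2 promoter: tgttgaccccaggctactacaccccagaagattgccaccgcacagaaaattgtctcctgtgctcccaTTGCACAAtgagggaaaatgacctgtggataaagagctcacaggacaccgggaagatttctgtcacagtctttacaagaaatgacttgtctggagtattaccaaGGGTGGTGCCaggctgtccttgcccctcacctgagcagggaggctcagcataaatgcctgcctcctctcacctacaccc
Saa3 promoter: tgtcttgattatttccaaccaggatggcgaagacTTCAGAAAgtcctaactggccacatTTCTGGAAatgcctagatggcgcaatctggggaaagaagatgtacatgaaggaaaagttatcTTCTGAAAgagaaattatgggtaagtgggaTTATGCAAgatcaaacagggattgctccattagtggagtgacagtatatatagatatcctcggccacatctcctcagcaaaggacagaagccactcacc
The Saa1 and Saa2 windows were identical at 94.8% of aligned columns, whereas Saa1 and Saa3 were identical at 52.2%. Saa1 and Saa2 both held 1 match to TTGCNNAA, which overlapped one to TTNNGNAA, and 1 to the NF-kB letters, and a TTNNGNAA match of Saa1 starting 86 bases upstream had no counterpart in Saa2. Saa3 held 4 matches to TTNNGNAA, of which the nearest to the start also matched TTGCNNAA, and none to the NF-kB letters. None of these windows held TTCNNNGAA, the letters of a STAT site. Of 32851 promoter windows in the table, 9.56% held TTGCNNAA, 36.8% TTNNGNAA, 45.8% the NF-kB letters and 7.02% TTCNNNGAA. Matches to the looser of these letters were thus common among all genes, and a match is no more than a description of the window. A window was found for 6 of the 10 genes.

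The probes are shown because they set what each value measures. Coordinates are those of mm9, as given by the scanner files.
Saa1 probe, chr7:53996070-53996129, first 56 bases: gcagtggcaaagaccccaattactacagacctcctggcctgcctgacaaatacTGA
Saa3 probe, chr7:53967559-53967618: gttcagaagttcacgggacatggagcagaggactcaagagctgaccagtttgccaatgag
Orm1 probe, chr4:63007395-63009038: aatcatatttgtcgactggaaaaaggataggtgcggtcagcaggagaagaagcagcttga
Orm2 probe, chr4:63024979-63025038: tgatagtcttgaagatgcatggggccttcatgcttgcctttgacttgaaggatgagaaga
The capitals in the Saa1 probe mark a stop codon, so that this probe lies at the end of the coding sequence. The Saa1 and Saa2 probes came from different places of their transcripts, and their best ungapped overlap had 20 identical bases in 58. That compares the probes only with each other. Whether either also binds transcripts of the other gene was not tested. The Orm1 probe, whose 60 bases span 1644 bases of genome and so cross at least 1 exon junction, is assigned to RefSeq transcripts of both Orm1 and Orm2 in the scanner files. It measured the sum of both genes to an unknown degree, while the Orm2 probe is assigned to Orm2 alone. In the RefSeq gene table Saa2 is an older name of Saa1 and Saa1 an older name of Saa2, so that the names used here are those of the array design.

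Between 60.16% and 65.23% of probes were well above background per array, no spot was saturated, and arrays of 1 group correlated at 0.985 to 0.992. Xist, transcribed from the inactive X chromosome of females, was well above background on 12 of 12 arrays, and among Y-linked genes Ddx3y and Eif2s3y were so on 0 arrays, Uty on 1, a sham array, and Kdm5d on all 12, so that these genes go against the label male in part. The groups were alike in this apart from that array, and no comparison below turns on it. The sham and 3 h arrays and 2 of the 12 h arrays lay on slide 1, and the third 12 h array and all 72 h arrays on slide 2. Slide and the 72 h group can therefore be separated through 1 array only, and values with slide as a block are given beside the 72 h results. In bulk tissue, a change in the number of cells of a type and a change in RNA per cell cannot be told apart.

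Levels are log2 intensities less the array's 75th percentile, so that 0 is the brightness of that percentile. A gene was called when it differed more than 2-fold with a limma adjusted p below 0.05 over all probes. At 3 h, 2 of the 10 acute phase genes were called higher than sham and 0 lower, at a background of 7.47% of all genes called. At 12 h, 7 were called higher (background 9.28%), and at 72 h, 8 were (background 8.9%), again with 0 lower. At an unadjusted p under 0.05 the same limma fit also had 0 of them lower at each time. Counting only genes called higher, the background was 3.14%, 3.95% and 4.5% at the 3 time points. The median difference of the 10 genes was 0.37, 1.78 and 3.10 on the log2 scale at these times, beside 0.06, -0.04 and -0.15 over all genes. The 3 comparisons share the sham arrays. Each gene was called at 1 or more time points, but with different timing.

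**Figure D1:**
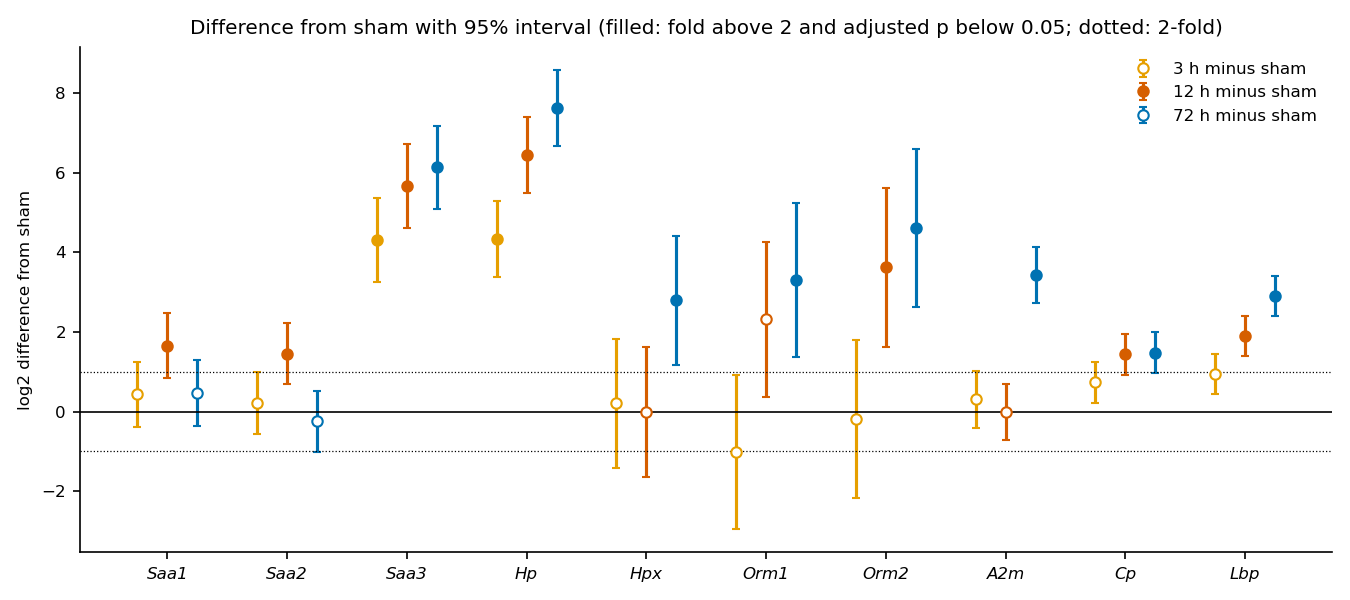
Log2 difference from sham of each acute phase gene (brightest probe) at 3, 12 and 72 h, with the 95% interval of the limma fit over 12 arrays. Saa3 and Hp lie above 4 at every time point, Saa1 and Saa2 pass the threshold at 12 h only, and Hpx and A2m at 72 h only.

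Levels of Saa3 transcripts, the serum amyloid A that is chiefly made outside the liver, were already raised at 3 h. The level of Saa3 was 1.49, 1.37 and 1.56 in the sham arrays, the arrays of 3 h gave 4.99, 5.40 and 6.94, those of 12 h 7.40, 6.98 and 7.0 and those of 72 h 7.45, 6.97 and 8.37. Every array after cauterization was above every sham array. The difference from sham was 4.31 ± 0.47 (SE, n = 3 arrays per group) at 3 h (19.8-fold, limma adjusted p = 0.000324), 5.66 at 12 h (50.5-fold, limma adjusted p = 4.83e-05) and 6.13 at 72 h (70.0-fold, limma adjusted p = 4.08e-05). The slide block left Saa3 at 6.32 above sham at 72 h (limma adjusted p = 0.00953). The 72 h level was 1.82 above that at 3 h (limma adjusted p = 0.016), a call that was lost without the 72 h array of replicate 3 (1.43, limma adjusted p = 0.0544), without 3 h replicate 2 (1.63, 0.0567 by the same test) and with slide as a block. The 12 h and 72 h levels of Saa3 overlapped and did not differ past the threshold (0.47, 95% interval -0.58 to 1.52).

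Saa1 and Saa2, which the colon and liver share, moved together and briefly. The level of Saa1 was 5.48, 5.14 and 5.20 in sham, the arrays of 3 h gave 4.98, 5.76 and 6.38, those of 12 h 7.07, 6.68 and 7.03 and those of 72 h 5.58, 5.18 and 6.44. Only the 12 h arrays were above all sham arrays as a group. The difference of Saa1 from sham at 12 h was 1.66 ± 0.37 (3.15-fold, limma adjusted p = 0.01), and at 3 h and 72 h it was 0.43 and 0.46, with intervals of -0.39 to 1.25 and -0.36 to 1.28 that include 0.

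Saa2 followed the same course on a probe of different sequence, though binding of either probe to the other gene's transcripts was not tested. The level of Saa2 was 6.01, 5.72 and 5.83 in sham, the arrays of 3 h gave 5.25, 6.24 and 6.74, those of 12 h 7.43, 7.05 and 7.45 and those of 72 h 5.50, 5.22 and 6.11. The sham, 3 h and 72 h arrays overlapped, and the 12 h arrays lay above them all. The difference of Saa2 at 12 h was 1.46 ± 0.35 (2.75-fold, limma adjusted p = 0.0137). Between 12 and 72 h, Saa2 fell by 1.70 on the log2 scale (3.26-fold lower at 72 h, limma adjusted p = 0.00845), whereas Saa1 had -1.19 (limma adjusted p = 0.0509). Fitted with a slide block, the Saa2 value was -1.84 and was not past the threshold (limma adjusted p = 0.0854), and within slide 2, on 1 array against 3, it was the same -1.84. Within slide 1 alone, on 2 arrays at 12 h, the Saa2 rise over sham was 1.39 (limma adjusted p = 0.0541). Over the 12 arrays, Saa1 and Saa2 correlated at 0.93 (Pearson, points shared by 4 groups), Saa1 and Saa3 at 0.63, and Saa2 and Saa3 at 0.35.

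**Figure D2:**
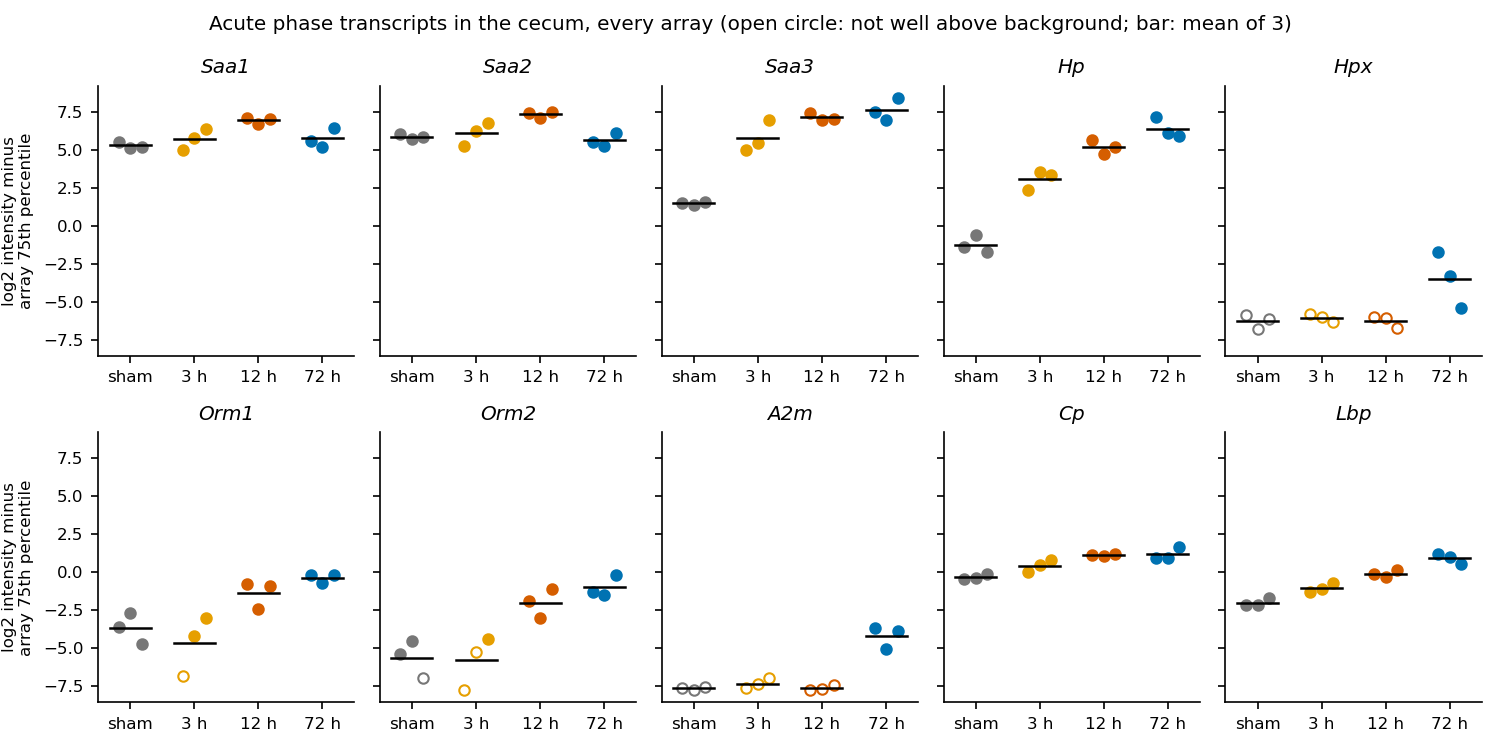
Level of each acute phase gene on every array (y axis, log2 intensity minus the array's 75th percentile; x axis, group). Open circles are arrays on which the probe was not well above background, bars are means of 3 arrays, and heights in different panels are different probes and not to be compared. Saa1 and Saa2 peak at 12 h, and the A2m and Hpx probes are above background on the 72 h arrays only.

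Hp rose at each of the 3 times. Its product binds free haemoglobin, and its probe lies at chr8:112099045-112099104 on the minus strand. The level of Hp was -1.40, -0.63 and -1.75 in sham, the arrays of 3 h gave 2.36, 3.54 and 3.32, those of 12 h 5.60, 4.73 and 5.20 and those of 72 h 7.12, 6.07 and 5.89. No array of a time point overlapped with those of the time point before it. Hp was above sham by 4.33 ± 0.43 at 3 h (20.1-fold, limma adjusted p = 0.000196), 6.43 at 12 h (86.4-fold, limma adjusted p = 1.56e-05) and 7.62 at 72 h (196-fold, limma adjusted p = 8.91e-06). The rise of 2.10 from 3 to 12 h passed the threshold (limma adjusted p = 0.0165) but was lost in the slide block fit (2.09, adjusted p by limma 0.0528). It was also lost without 12 h replicate 1 (1.89) and without 3 h replicate 1 (1.75). Leaving out 12 h replicate 3 is, for this contrast, the same fit as the slide block. From 12 to 72 h the difference of Hp was 1.19 (limma adjusted p = 0.0891), and from 3 to 72 h it was 3.29 (limma adjusted p = 0.000494), a call that the slide block removed (3.25, adjusted p by limma 0.0694). In the slide block fit Hp at 72 h was above sham by 7.58 (limma adjusted p = 0.00306).

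The probes of Hpx and A2m were well above background on the 72 h arrays only. Hemopexin binds heme set free from haemoglobin. The level of Hpx was -5.85, -6.79 and -6.16 in sham, between -6.35 and -5.83 at 3 h, between -6.72 and -6.01 at 12 h, and -1.71, -3.28 and -5.44 at 72 h. The probe was not well above background on any of the 9 earlier arrays, and the third 72 h array was barely above the lowest signal called above background. The fitted difference of Hpx was 2.79 (limma adjusted p = 0.0229), which gave at least 4.18-fold, a bound that sets the 72 h mean against whichever was brighter on a sham array, the probe itself or the dimmest signal there to count as well above background. The call was lost in the slide block fit (3.46, adjusted p by limma 0.209), with normexp background correction (0.47, limma adjusted p = 0.112), without sham replicate 2 (2.53, limma adjusted p = 0.08), without sham replicate 3 (2.84, 0.0509 by the same test) and without 72 h replicate 2 (2.69, 0.0653 by the same test). The size of the Hpx difference rested on single 72 h arrays, with 1.90 and at least 2.26-fold without replicate 1 (limma adjusted p = 0.0487) and 3.77 and at least 8.26-fold without replicate 3 (0.000933 by the same test).

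The 3 arrays at 72 h also differed in fat cell markers, in the same order as in Hpx. The summed level of the 8 fat cell markers was 128, 74.8 and 20.8 times the 75th percentile at 72 h, and between 17.8 and 48.6 on the other arrays. Adipoq, the fat cell hormone adiponectin, was at 3.47 and 2.08 on the first and second 72 h arrays and not well above background on the third (-7.96). Ahsg, which encodes the liver protein fetuin-A, was likewise at 0.95 and -1.28 and not above background on the third (-6.78). Other marker sums ran in the same order over these arrays, namely those of fibroblasts (522, 338 and 232), endothelial cells (11.7, 8.11 and 5.16), mesothelial cells (22.8, 15.8 and 15.0) and hepatocytes (11.4, 6.50 and 6.30). The sums of neutrophil (311, 244 and 443), macrophage (277, 267 and 281), epithelial (780, 1019 and 984) and smooth muscle markers (92.5, 116 and 127) did not. Of the other acute phase genes, Hp (7.12, 6.07 and 5.89) and Lbp (1.19, 1.01 and 0.52) ran in the order of Hpx over these arrays, and the rest did not. These marker values, chosen for naming after they were seen, accompany the levels of Hpx, Hp and Lbp. Their part in those results was not tested.

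A2m encodes a broad protease inhibitor. The level of A2m was -7.59, -7.76 and -7.53 in sham, from -7.63 to -6.99 on the 3 h arrays and from -7.74 to -7.44 on the 12 h arrays, and the probe, at chr6:121624853-121624912, was not well above background on any of these arrays. It was -3.70, -5.07 and -3.85 at 72 h, above background on all 3. The fitted difference of 3.42 ± 0.32 (limma adjusted p = 0.000112) gave at least 2.52-fold. The slide block gave A2m a difference of 3.15 (limma adjusted p = 0.028), and with normexp, which lifts dim probes by an offset of 50, it was 0.17 and not past 2-fold.

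Orm1 and Orm2 encode the alpha-1-acid glycoproteins, which bind lipids and drugs in plasma. Both were called higher at 12 h than at 3 h, calls lost in 15 (Orm1) and 10 (Orm2) of 29 alternatives. The level of Orm2 was -5.37, -4.51 and -6.96 in sham, the arrays of 3 h gave -7.74, -5.24 and -4.40, those of 12 h -1.92, -2.99 and -1.08 and those of 72 h -1.33, -1.50 and -0.17. Sham and 3 h arrays overlapped and lay below all 12 h and 72 h arrays, and the probe was not well above background on 1 sham array and 2 arrays at 3 h. The difference of Orm2 from sham was 3.62 ± 0.89 at 12 h (12.3-fold, limma adjusted p = 0.0164) and 4.61 at 72 h (24.5-fold, limma adjusted p = 0.00572). At 3 h it was -0.18, with an interval of -2.17 to 1.81. In the slide block fit both Orm2 calls were lost, with 3.16 for 12 h (limma adjusted p = 0.0553) and 3.24 for 72 h (0.28 by the same test). The 12 h call was also lost without sham replicate 3 (2.95, limma adjusted p = 0.0536). Leaving out 12 h replicate 3 is, for this contrast, the same fit as the slide block and gave the same 3.16. With normexp the Orm2 differences were smaller and still called, at 1.06 for 12 h (limma adjusted p = 0.0189) and 1.70 for 72 h (0.000547 by the same test). Without sham replicate 3 the 72 h value was 3.94 (limma adjusted p = 0.0197). The 12 h array on slide 2, at -1.08, was above those on slide 1, at -1.92 and -2.99.

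The shared probe of Orm1 gave a similar picture. Its level was -3.59, -2.70 and -4.69 in sham, the arrays of 3 h gave -6.81, -4.21 and -3.02, those of 12 h -0.77, -2.40 and -0.88 and those of 72 h -0.20, -0.71 and -0.17. The difference from sham was 2.31 ± 0.87 at 12 h (limma adjusted p = 0.0888), growing to 3.30 at 72 h (9.85-fold, limma adjusted p = 0.0239). The 3 h arrays spread widely, from -6.81 to -3.02, and at 12 h the call was reached without the first of them (limma adjusted p = 0.0217), with normexp (1.07, limma adjusted p = 0.013) and with a floor on dim values (2.31, limma adjusted p = 0.0205). At 72 h the Orm1 call was lost in the slide block fit (2.60, adjusted p by limma 0.374) and in 4 of the fits that left out 1 array, namely sham replicates 1 and 3 and 72 h replicates 1 and 3 (2.78 to 3.33, limma adjusted p = 0.0614 to 0.0775), while normexp gave 1.77 with the call kept (0.000339 by the same test). Orm1 and Orm2 correlated at 0.97 over the 12 arrays. From 3 to 72 h, Orm1 rose by 4.32 (limma adjusted p = 0.00463) and Orm2 by 4.79 (limma adjusted p = 0.0031). Both calls were lost with slide as a block. Without 3 h replicate 1 these rises were 3.26 and 3.82, and without 3 h replicate 3 they were 5.15 and 5.49, all called.

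Cp encodes a copper enzyme that oxidises iron, and the call depended on which of its 5 probes was read. The brightest, at chr3:19889071-19889130 and assigned to transcript variant 2, was at -0.45, -0.37 and -0.12 in sham, the arrays of 3 h gave 0.03, 0.44 and 0.80, those of 12 h 1.16, 1.06 and 1.17 and those of 72 h 0.91, 0.93 and 1.65. Every array after cauterization was above every sham array. The difference was 0.73 at 3 h (limma adjusted p = 0.052), 1.44 ± 0.23 at 12 h (2.72-fold, limma adjusted p = 0.00179) and 1.48 at 72 h (2.79-fold, limma adjusted p = 0.00199). The slide block brought the 72 h value to 1.42 without a call (limma adjusted p = 0.123).

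The other probes of Cp gave smaller differences. The probe at chr3:19874934-19874993, assigned to the same variant, stayed below 2-fold, with 0.96 at 12 h (limma adjusted p = 0.00638) against 0.71 at 72 h (0.0291 by the same test). The probe of variant 3, at chr3:19907511-19907570, had 1.06 at 12 h (limma adjusted p = 0.0223) but 0.52 at 72 h, and was above background on 1 sham array. The probe of variant 4, at chr3:19909387-19909446, had 0.42 and 0.33, and that of an Ensembl transcript at chr3:19869171-19869230 had 0.19 and 0.23, none past the threshold. With the mean of all probes Cp had 0.81 at 12 h and 0.65 at 72 h and was not called. Beside a background of 9.18% and 8.33% of probes called, 2 of the 5 probes were called at 12 h and 1 at 72 h.

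**Figure D3:**
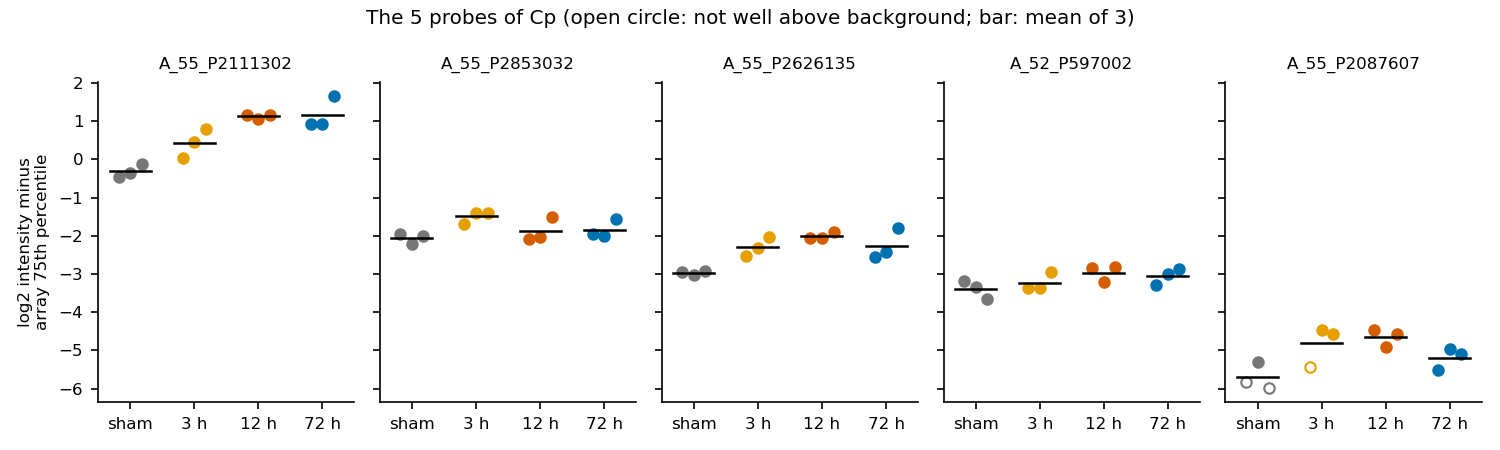
Level of the 5 probes of Cp on every array (y axis, log2 intensity minus the array's 75th percentile; x axis, group), from brightest to dimmest. Open circles are arrays on which the probe was not well above background and bars are means of 3 arrays. The brightest probe separates the 12 h and 72 h arrays from sham, while the second and the fourth overlap with sham at both times.

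Lbp, which hands lipopolysaccharide to CD14, rose by steps. Its probe spans 3543 bases at chr2:158154142-158157684 and so crosses at least 1 exon junction. The level of Lbp was -2.13, -2.14 and -1.72 in sham, the arrays of 3 h gave -1.33, -1.09 and -0.71, those of 12 h -0.15, -0.32 and 0.17 and those of 72 h 1.19, 1.01 and 0.52. The 4 groups did not overlap with one another. The difference from sham was 0.96 ± 0.23 at 3 h (1.94-fold, limma adjusted p = 0.0157, short of 2-fold), 1.90 at 12 h (3.73-fold, limma adjusted p = 0.000347) and 2.91 at 72 h (7.50-fold, limma adjusted p = 4.37e-05). From 12 to 72 h it was 1.01 (limma adjusted p = 0.0133), a call that just passed 2-fold and was lost in the slide block fit (0.74, limma adjusted p = 0.241), in the authors' own table, with normexp, and without 12 h replicates 1 or 2 or 72 h replicates 1 or 2 (0.87 to 0.99). The rise of Lbp over sham at 72 h stood at 2.50 in the slide block fit (limma adjusted p = 0.0146) and at 2.28 with normexp (2.02e-05 by the same test).

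Between time points, 3 of the 10 genes were called higher at 12 h than at 3 h (Hp, Orm1 and Orm2), at a background of 3.46% called and 1.86% called higher. From 12 to 72 h, 3 were called higher (Hpx, A2m and Lbp) and 1 lower (Saa2), at a background of 7.43% called, 4.49% higher and 2.94% lower. From 3 to 72 h, 7 were called higher, at a background of 11.5% called and 6.26% higher. In the fit with slide as a block, 2 of the 10 genes were called at 3 h, 6 at 12 h and 4 at 72 h against sham, where that fit called 7.46%, 9.8% and 3.1% of all genes. Saa3, Hp, A2m and Lbp were the ones still called at 72 h in that fit. Between time points it left A2m as the only gene called from 12 to 72 h and from 3 to 72 h, and all calls from 3 to 12 h were lost, at backgrounds of 3.29%, 3% and 2.43% of all genes.

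The genes whose levels followed each member most closely over the 12 arrays were sought among 14262 named genes above background on all arrays. For Saa3 these were Wfdc17, Ms4a6d and Ccl24 (Pearson r of 0.99, 0.98 and 0.98), and for Hp they were Fcgr3, Lrg1 and Ifi202b (0.98, 0.98 and 0.97). For Saa1 they were Cd274, Saa2 and Pik3ap1 (0.96, 0.93 and 0.93), and for Saa2 the defensin-related Defa-rs12 and Defa-rs4 and Saa1 (0.95, 0.94 and 0.93). Cp was closest to Slpi, Sla and Ifitm1 (0.98, 0.98 and 0.97), and Lbp to Tspan4, Cd302 and Cfp (0.98, 0.97 and 0.97). These are descriptions over arrays that share 4 groups. Hpx, A2m, Orm1 and Orm2 were not above background on all arrays and were not searched.

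Many cytokines, receptors and transcription factors that act upstream of acute phase genes were already raised at 3 h. Of 33 such genes, 19 were called higher at 3 h, 18 at 12 h and 18 at 72 h, and 1 was lower, at 72 h. Their median difference was 1.26, 1.72 and 1.23, and 3.14%, 3.95% and 4.5% of all genes were called higher at these times. Il6 was 7.59 above sham at 3 h, 6.72 at 12 h and 7.19 at 72 h (limma adjusted p = 1.15e-05, 1.54e-05 and 1.4e-05). Il1b had 6.71, 8.32 and 7.35, and Osm, the related cytokine oncostatin M, had 6.00, 7.30 and 5.46. All values of this triad passed the threshold.

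Tnf rose by 2.62, 4.43 and 2.60 (limma adjusted p = 0.00398, 0.00018 and 0.00395). Among receptors, the oncostatin M receptor Osmr rose by 2.06, 1.87 and 2.32, whereas the IL-6 receptor Il6ra had -0.31 at 3 h (limma adjusted p = 0.167) and rose by 1.01 at 12 h and 1.12 at 72 h. Stat3 rose by 1.26 at 3 h (limma adjusted p = 9.22e-05) and had 0.88 and 0.62 later, under 2-fold. Of the C/EBP genes, Cebpb rose by 2.49, 3.22 and 2.85 and Cebpd by 3.35, 2.56 and 2.0, whereas Cebpa had 0.15, 0.15 and 0.35 (limma adjusted p = 0.536, 0.611 and 0.16). Il22ra2, a soluble receptor that binds IL-22, was the gene that fell, by 2.43 at 72 h (limma adjusted p = 0.0223).

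**Figure D4:**
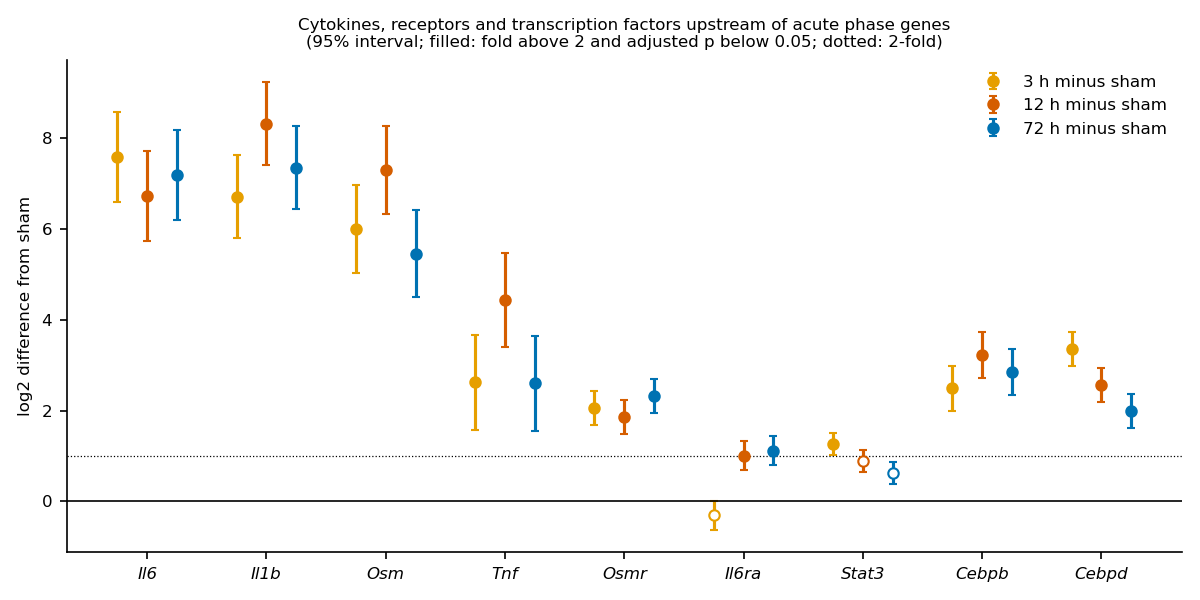
Log2 difference from sham at 3, 12 and 72 h of cytokines (Il6, Il1b, Osm, Tnf), receptors (Osmr, Il6ra) and transcription factors (Stat3, Cebpb, Cebpd) upstream of acute phase genes, with 95% intervals of the limma fit over 12 arrays. Il6, Il1b and Osm lie above 5 at every time point, and Il6ra is below the 2-fold line at 3 h.

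Among 30 other positive acute phase and plasma defence genes, 10, 13 and 14 were called higher at the successive times, with medians of 0.61, 1.11 and 1.13. The shares of all genes called higher were 3.14%, 3.95% and 4.5%. Lcn2, the siderophore-binding lipocalin, rose by 5.99, 8.90 and 6.58 (limma adjusted p = 0.000211, 1.73e-05 and 0.000107). Steap4, a metalloreductase, rose by 3.80, 4.39 and 4.17. The pentraxin Apcs was the gene called lower, by -1.12 at 72 h (limma adjusted p = 0.00847), where it was above background on 0 arrays. In contrast, 5 of the 30 genes were not well above background on any array.

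Of 8 negative acute phase genes, whose liver transcripts fall in inflammation, 0 were called lower against sham at any time point in this limma fit. At an unadjusted p under 0.05, 1 was lower, at 12 h. With 7.47%, 9.28% and 8.9% of all genes called in either direction, 0 of 8 says little. Trf, which encodes transferrin, rose by 1.95 at 72 h (limma adjusted p = 0.00105), and 3 of the 8 were not above background on any array. Of 20 genes for receptors and handling of acute phase ligands, 4, 6 and 6 were called higher at 3, 12 and 72 h. All genes had 3.14%, 3.95% and 4.5% called higher at these times. Fpr2, a receptor of serum amyloid A, rose by 4.52, 6.13 and 5.26, and Fpr1 by 5.95, 7.07 and 5.65. Cd14, the partner of Lbp, rose by 3.34, 4.46 and 3.03 (limma adjusted p = 0.000108, 1.56e-05 and 0.000159). Hmox1, which breaks down heme, rose by 2.89, 3.00 and 3.75 (limma adjusted p = 5.32e-05, 2.65e-05 and 1.17e-05). Cd163, the receptor of haptoglobin-haemoglobin complexes on macrophages, had 0.08 and 0.17 at the earlier times and rose by 2.16 at 72 h (limma adjusted p = 0.00163). The liver lectin gene Asgr2 was called lower at 12 h (-1.45, limma adjusted p = 0.000312).

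Markers of the cells that can make these proteins moved with the time points. Of 13 neutrophil markers, 7, 10 and 8 were called higher at 3, 12 and 72 h, beside 3.14%, 3.95% and 4.5% of all genes. The summed level of these markers was 56.9 to 65.1 in sham, 246 to 415 at 3 h, 566 to 590 at 12 h and 244 to 443 at 72 h. Csf3r made up most of the sham sum and was at 5.85 in sham and 5.38, 5.48 and 5.44 at 3, 12 and 72 h. The rise of the neutrophil sum thus came from other markers. Of 9 macrophage markers, 2 were called higher at 12 h and all 9 at 72 h, with sums of 80.5 to 96.2 in sham, 69.04 to 162 at 3 h, 124 to 142 at 12 h and 267 to 281 at 72 h. S100a9 of neutrophils rose by 10.04, 10.82 and 10.06, and Adgre1 of macrophages by 1.18 at 12 h and 2.65 at 72 h. The neutrophil sums lay above sham at each time, and the macrophage sums, which spread widely at 3 h, overlapped with sham at that time. The part of either cell type in the levels of the acute phase genes was not tested.

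Mesothelial markers, of which 7 of 8 were measured, had 1 called higher and 3 lower at 3 h and at 12 h. The higher one was Pdpn, which rose by 1.71 and 2.29 at these times and 2.57 at 72 h. At 72 h, 3 were called higher, led by Wt1 (4.39, limma adjusted p = 0.00085). The sum of the mesothelial markers was 3.47 to 4.49 in sham, 6.98 to 8.77 at 3 h, 10.8 to 12.7 at 12 h and 15.0 to 22.8 at 72 h. It thus rose at 3 and 12 h while 3 of the 7 markers were called lower. All 7 smooth muscle markers were called lower at 12 h and 6 of them at 72 h, and the sum went from 284 to 306 in sham to 92.5 to 127 at 72 h. Of 11 epithelial markers, 1 was higher at 3 h, 1 lower at 12 h and 3 lower at 72 h, while all 11 were above background on 12 arrays. At the 3 times, 7.47%, 9.28% and 8.9% of all genes were called in either direction. The epithelial counts at 3 and 12 h were near that share. Fibroblast markers were called lower for 3 of 6 at 12 h and higher for 4 of 6 at 72 h, and endothelial markers higher for 2 of 6 at 72 h.

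Of 11 hepatocyte markers, 7 were above background on all arrays. Each time point had 1 of them called higher and 1 lower, beside 7.47%, 9.28% and 8.9% of all genes called. The summed level of the hepatocyte markers was 8.60 to 12.8 in sham, 11.3 to 12.0 at 3 h, 8.47 to 13.8 at 12 h and 6.30 to 11.4 at 72 h. The ranges of the sum overlapped with sham at every time point, but the sum says little about its dim genes. At 3 and 12 h Tat was called higher (2.23 and 1.67) and Cyp2e1 lower (-3.48 and -3.83). Apoh, named after its values were seen, was well above background on 3 arrays at 72 h and on 0 in each other group. From 12 to 72 h, 3 of the 11 were called higher and 2 lower (4.49% and 2.94% of all genes). Alb, the defining product of liver, named after its values were seen, was at -5.08, -4.46 and -4.77 in sham, near the background limit of -5.60 to -5.46 on those arrays, and was at -3.03, -3.74 and -4.71 at 72 h (difference 0.95, limma adjusted p = 0.102). Of the 8 fat cell markers, Adrb3 was called lower at 3 h (-3.58) and at 12 h (-3.45).

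**Figure D5:**
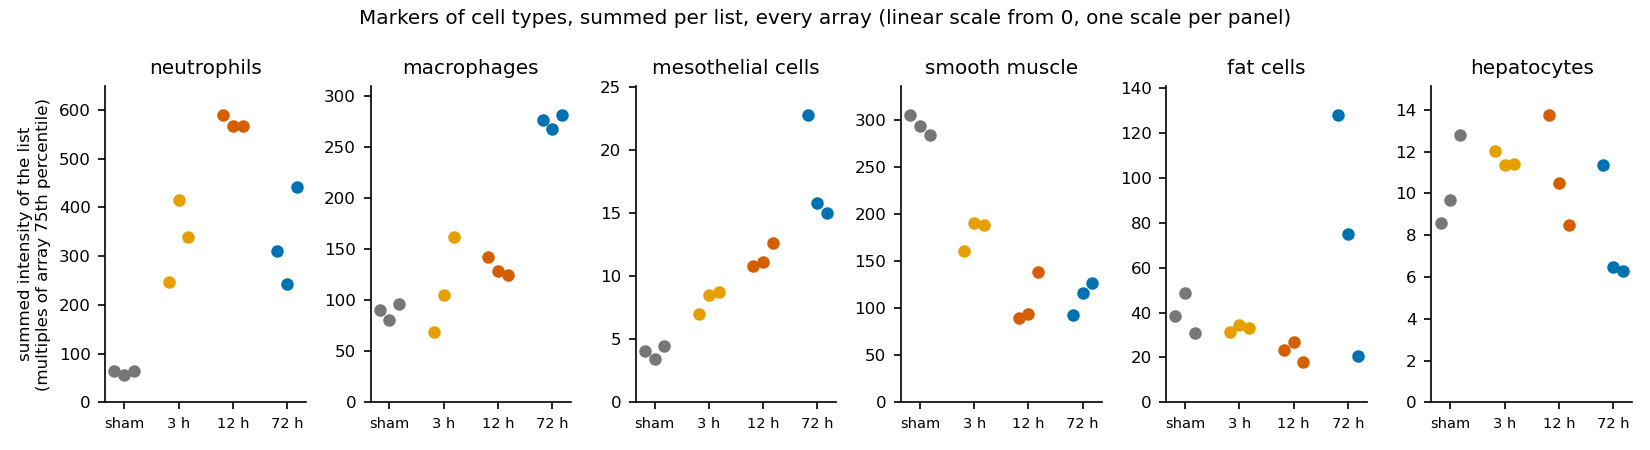
Summed intensity of the markers of 6 cell types on every array, in multiples of the array's 75th percentile, on a linear scale from 0 that differs between panels. Neutrophil markers are highest at 12 h, macrophage markers at 72 h, hepatocyte markers overlap with sham at every time, and the fat cell markers of the 72 h arrays run from 20.8 to 128.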

How the data were processed

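RNA of 12 cecum samples was labelled with Cy3 and hybridised to 1-colour Agilent mouse expression arrays, in 4 groups of 3 taken from the sample labels. For every array the authors deposited scanner output from Agilent Feature Extraction 11.5.1.1, in which each spot has a background-subtracted intensity on a linear scale that is not normalized between arrays. Their own log2 table, likewise deposited, was made in GeneSpring GX 14.9 by scaling to the 75th percentile, and its rows are centred on their medians as the values show (r = 1.00 with the recomputed values). It served as an alternative.

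Each array's 75th percentile of non-control spots was subtracted from the log2 intensity. Controls and outliers were dropped, replicate spots averaged, and a gene was represented by its brightest probe. Group means over all 12 arrays were fitted in R 4.3.3 by lmFit and eBayes of limma 3.58.1, with Benjamini-Hochberg adjustment over 56605 probes. The fit was tested on simulated data. Where a group had no array with the probe well above background, a lower bound of the fold was computed, and no fold where this fell under 1. Such a bound rests on the dimmest signal that the scanner software calls well above background. Motifs were sought in the RefSeq promoter table with Python 3.11.15. Lists were described by counts and medians, and members and lists were chosen with earlier results of these data known. The genes named from each list were up to 3 per time point with the largest difference among those called and above background on all arrays of both groups, those called against the list's main direction, and a fixed set of cytokines, receptors and transcription factors. Some of these are not reported here. Alternatives were another scaling or background correction, the authors' table, a filter on dim probes or a floor, slide or replicate number as a block, other tests, probes and thresholds, and leaving out each array. With 3 arrays per group precision is low. The limma p-values rest on 1 estimate of spread per probe, pooled over the 4 groups and moderated by eBayes across probes. Groups differed in spread, with an SD of Saa3 of 0.10 in sham and 1.03 at 3 h. Exons were not assigned, since no annotation of build mm9 was used here.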

Additional observations from a re-analysis of the deposited data

Results flagged for a closer look

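Differences between the time points in the change from a shared sham group were tested in the limma fit as contrasts of the time points. Of the 10 genes, 3 were called from 3 to 12 h, 4 from 12 to 72 h and 7 from 3 to 72 h. The shares of all genes called were 3.46%, 7.43% and 11.5%. From 3 to 12 h, Hp rose by 2.10 (limma adjusted p = 0.0165), Orm1 by 3.33 (limma adjusted p = 0.0416) and Orm2 by 3.80 (limma adjusted p = 0.0286). The last pair was unsteady, with calls lost in 15 and 10 of 29 alternatives. Among these, the slide block and leaving out 12 h replicate 3 are the same fit. Leaving out 1 array gave 2.27 to 4.16 and 2.83 to 4.49, the lowest without 3 h replicate 1 and the highest without 3 h replicate 3. With normexp the rises of Orm1 and Orm2 were 1.2 and 1.0. From 12 to 72 h, Saa2 had -1.70 (limma adjusted p = 0.00845), the only fall. Over the same interval Lbp rose by 1.01 (limma adjusted p = 0.0133), and the fitted values of Hpx and A2m were 2.80 (limma adjusted p = 0.0254) and 3.42 (limma adjusted p = 0.00023). From 3 to 72 h the rises were 1.82 for Saa3, 3.29 for Hp, 2.58 for Hpx, 4.32 for Orm1, 4.79 for Orm2, 3.11 for A2m and 1.95 for Lbp, with limma adjusted p from 0.000153 to 0.0236. The Hpx and A2m probes were well above background on 0 arrays at 3 and 12 h, so that these rises have only lower bounds, at least 4.12-fold and 2.49-fold from 12 h and at least 3.46-fold and 2.08-fold from 3 h. With normexp neither was called, at 0.55 and 0.29 from 12 h and 0.36 and 0.09 from 3 h. The Hpx calls were also lost without 72 h replicate 1 (1.91 from 12 h and 1.70 from 3 h). The contrasts of 72 h with earlier times compare slide 2 with arrays that lie mostly on slide 1, and the part of the slide was not tested beyond the block fit given below.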

How the results depend on the processing

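No called difference changed direction in any alternative. All 31 called differences lost the call in at least 1, and 9 of 29 uncalled differences gained it in at least 1. Some calls against sham were lost only in the paired t-test below. These were Saa3 and Hp at 3, 12 and 72 h, Lbp at 12 and 72 h and Saa1 at 12 h. Student's paired t-test, named in the methods for 2 groups in general, called 0 of the acute phase genes in all comparisons, with 3 pairs each. The microarray methods name no test, so it need not be the one behind the study's own gene lists. This t-test called at most 0.0054% of all genes in any comparison, so that the loss of calls was not particular to these genes. At an unadjusted p under 0.05 that t-test had 4, 6 and 6 of them at 3, 12 and 72 h against sham. The fit with slide as a block called 4 genes at 72 h against sham, 1 from 12 to 72 h, 1 from 3 to 72 h and 0 from 3 to 12 h. Of all genes it called 3.1%, 3.29%, 3% and 2.43%. An unpaired t-test called 4 at 72 h, 1 from 12 to 72 h, 3 from 3 to 72 h and 0 from 3 to 12 h, beside 4.17%, 2.48%, 7.15% and 0.524% of all genes. Within slide 1 the count from 3 to 12 h was 0, beside 2.23% of all genes. From 3 to 12 h the count was 3, beside 3.46% of all genes. It was 5 with the percentile over probes above background (3.4% of all genes), with a filter (5.62%) or a floor on dim probes (3.16%) and with eBayes with trend and robust (3.75%). It was 6 with normexp (1.57%) and 1 with only the groups compared (2.3%). Leaving out each array gave 2 to 3 genes at 3 h (5.89% to 7.86% of all genes), 6 to 8 at 12 h (7.77% to 10.1%) and 6 to 8 at 72 h (7.44% to 9.04%). Between time points it gave 0 to 7 from 3 to 12 h (2.34% to 3.48%), 2 to 5 from 12 to 72 h (5.67% to 8.3%) and 5 to 7 from 3 to 72 h (9.35% to 11.9%). The count from 3 to 12 h was 0 without 3 h replicate 1, without 12 h replicate 1 and without 12 h replicate 3 (2.85%, 2.34% and 2.43% of all genes). The last of these is, for this contrast, the same fit as the slide block. The count was 1 without 3 h replicate 2 (2.5% of all genes) and 7 without 3 h replicate 3 (3.16%). From 12 to 72 h it was 2 without 12 h replicate 1 or 2 and without 72 h replicate 1 or 2, beside 5.67% to 6.23% of all genes. Nothing in the sources used here says that replicate numbers pair the samples. Same-numbered arrays deviated together in 6 of 18 cases (r over 0.1, range -0.40 to 0.26) and differently numbered arrays in 12 of 36. With 3 arrays per group these correlations cannot settle whether samples were paired. The replicate block left 1 gene called from 3 to 12 h, beside 2.98% of all genes. The cause of these changes was not tested. Dim probes limit Hpx, A2m and Orm2.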
